A study of Mus musculus with 10 samples.

Results

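The genes described here are 37 imprinted genes of the mouse, listed by symbol. By symbol, 35 of the 37 were listed in every count matrix used, out of 27716 genes common to all matrices. Rian and Peg13 were not found by symbol and have no expression value here. The list spans the main imprinted loci of the mouse: Dlk1, Meg3, Mirg and Rtl1, then Igf2, H19, Ascl2, Tssc4 and Phlda2, then Peg3, Zim1 and Usp29, then Peg10, Sgce, Ppp1r9a and Asb4, the Prader-Willi and Angelman region (Snrpn, Ndn, Magel2, Peg12, Ube3a), Mest and Copg2, Nnat and Blcap, Igf2r and Airn, Zrsr1 and Commd1, and the separate genes Gnas, Grb10, Plagl1, Impact, Rasgrf1 and Slc38a4.

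An imprinted gene is transcribed mainly from the copy inherited from one parent, because the egg and the sperm leave different DNA methylation at control regions that the embryo keeps. Many paternally expressed imprinted genes favour growth of the embryo, with Igf2, a secreted growth factor, as the best known, and several maternally expressed ones, such as Igf2r and, in most tissues, Grb10, restrain it. A single control region often sets the expression of several neighbours, so imprinted genes lie in clusters. The counts hold no information on the parent of origin of a transcript, so the values below are levels of both copies together.

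The cells came from embryonic pancreas at the embryonic (E) stages E12.5, E14.5 and, last, E17.5. In 7 pools, whole pancreata were from wild-type Swiss Webster (SW) mice and 1 E14.5 pool was from Fev-Cre;ROSA26mTmG mice, in which Cre recombinase under control of the Fev gene switches cells that have expressed Fev, and their descendants, from tdTomato to GFP. Version 1 (v1) libraries were made at E12.5, E14.5 (batches 1 and 2) and E17.5 from all live cells. The E12.5 and E17.5 v1 pools belong to batch 2, which was collected on another day than batch 1. Version 2 (v2) SW libraries, 1 pool for each stage and each on another day, were made from live cells without CD140a (PDGFRA), a surface protein of most pancreatic mesenchyme, so their mesenchymal-like cells are those that escaped this depletion. The Fev-Cre library (v2), from mice on a C57BL/6J background, was made from sorted GFP+ and tdTomato+ cells. Pancreata of a pool came from 1 litter, except that the E12.5 v1 pool held 2 litters, and embryos were not told apart, so each pool is 1 sample. The p-values measure spread over pools, not over embryos or cells. In comparisons of classes this is the spread of the differences within pools, over at most 8 pools. In tests of stage it is the spread between SW pools with the kit allowed for, over at most 7 pools.

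Libraries held from 15671934 to 127151679 UMIs, and 57982 of 66017 barcodes had at least 200 genes, haemoglobin genes included. Libraries shared 0.494 to 1.79% of the barcodes of the smaller one. Haemoglobin transcripts took from 0.0128% of UMIs (Fev-Cre) to 60.9% (E17.5 v1), so levels are given as CPM, the UMIs of a gene over those of its class and library, with haemoglobin genes left out of the total, scaled to 1000000. Of the kept cells, 49467 were put in a named class from marker genes that include no imprinted gene of the list, 1541 (2.66%) were set aside as doublets and 6974 (12%) stayed unnamed. Summed markers of the alpha-like class, led by glucagon, ran from 35980 to 116900 CPM in that class, with a median of 225 CPM over the other classes. Those of the beta-like class, led by the insulin genes, ran from 73800 to 400300 CPM, with a median of 525.8 CPM elsewhere. Beta-like cells numbered 6 at E12.5 v1 and were not found at E12.5 v2, so this class has 6 libraries and no comparison of stages. No source used here states whether reads were counted by strand, so genes that overlap on opposite strands have uncertain values. Among listed genes these are Nnat with Blcap, Mest with Copg2, Igf2r with Airn and Zrsr1 with Commd1. Gnas, Meg3, Igf2, Usp29 and Tssc4 overlap genes outside the list on the opposite strand, with the same limit. Genes that overlap on the same strand (Snrpn with Snurf) have uncertain values as well.

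The promoters of 4 members that carry the results below are shown because these genes either move with a neighbour or differ most between classes. Each window runs from 250 bases before to 50 bases after the RefSeq start of the gene on the GRCm38.p6 build, written 5′ to 3′ on the gene's strand. Capitals mark copies of TGCCGC, the methylated 6-base site bound by ZFP57, a zinc finger protein that keeps imprints in the embryo, searched on both strands (the reverse complement reads GCGGCA).
Nnat, chr2:157559828-157560127, plus strand, which lies inside an intron of Blcap: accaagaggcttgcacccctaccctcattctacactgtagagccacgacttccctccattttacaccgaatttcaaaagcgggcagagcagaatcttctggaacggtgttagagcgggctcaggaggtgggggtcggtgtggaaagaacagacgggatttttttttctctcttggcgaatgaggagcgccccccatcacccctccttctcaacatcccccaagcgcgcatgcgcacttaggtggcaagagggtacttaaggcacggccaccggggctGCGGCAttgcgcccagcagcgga
Blcap, chr2:157566312-157566611, minus strand: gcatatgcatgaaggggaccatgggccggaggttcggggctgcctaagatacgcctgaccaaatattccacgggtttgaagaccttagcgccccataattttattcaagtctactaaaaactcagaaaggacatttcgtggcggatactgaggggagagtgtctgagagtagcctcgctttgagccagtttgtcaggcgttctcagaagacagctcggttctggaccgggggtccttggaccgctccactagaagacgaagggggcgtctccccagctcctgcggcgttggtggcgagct
Peg3, chr7:6730370-6730669, minus strand: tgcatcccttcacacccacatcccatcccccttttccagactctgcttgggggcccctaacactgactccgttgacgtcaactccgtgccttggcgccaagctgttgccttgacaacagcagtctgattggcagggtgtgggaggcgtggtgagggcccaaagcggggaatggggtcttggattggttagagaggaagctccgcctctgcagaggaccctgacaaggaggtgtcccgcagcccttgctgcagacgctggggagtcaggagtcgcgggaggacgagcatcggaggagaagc
Mest, chr6:30737803-30738102, plus strand: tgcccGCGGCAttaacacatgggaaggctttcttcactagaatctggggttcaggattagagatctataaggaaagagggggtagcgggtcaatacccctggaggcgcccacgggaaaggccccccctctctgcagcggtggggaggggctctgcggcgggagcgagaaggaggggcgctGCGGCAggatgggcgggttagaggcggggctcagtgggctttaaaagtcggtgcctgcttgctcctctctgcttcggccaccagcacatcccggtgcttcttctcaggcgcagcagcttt

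The Nnat window held 1 copy of the motif, the Mest window shown held 2, and those of Blcap and Peg3 none. Mest has 3 windows, of which 1 is shown and 2 held the motif. The Peg3 and Usp29 windows share 263 of their 300 bases, and the genes are read outward from the stretch between their starts. The windows of Nnat, Blcap and Mest held 17 CpG each and that of Peg3 held 13. Of the 31 listed genes with a window in RefSeq, among them Rian, 10 (32.3%) held TGCCGC in at least 1 window, beside 13.1% of all 27025 genes. The listed genes have more windows per gene, and counted by window the shares were 11 of 49 (22.4%) and 11.6% of all 32851. The letters do not show that ZFP57 binds there, and their absence from a window of this length says nothing of the protein.

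The listed genes differed widely among cell classes. Levels were compared over 11 classes: alpha-like, beta-like, delta-like, Fev+-like, Ngn3+-like, ductal-like, acinar-like, mesenchymal-like, mesothelial-like, endothelial-like and macrophage-like. Epsilon-like cells (2 libraries), neural crest and glia (6 libraries), erythroid-like and other immune cells were left out of this order. Over the 11 classes, the class with the highest mean was mesenchymal-like for 13 of the 35 genes, alpha-like for 6 and beta-like for 4, and the lowest was macrophage-like for 19. The same count was not made over all genes, so these numbers are not read as a trait of imprinted genes. The mesenchymal-like class stands for the loose connective tissue around the epithelium. Clusters that scored as vascular smooth muscle were named into this class as well, and their share was not separated. Igf2 had a level of 1141 ± 568.2 CPM (SD, n = 8 libraries) in mesenchymal-like cells. It was 137.5 ± 88.8 in ductal-like, 143.8 ± 107 in acinar-like, 33.3 ± 30.9 in alpha-like and 33.2 ± 20.6 (n = 7) in macrophage-like cells. Endothelial-like cells (867.4 ± 462 CPM) and mesothelial-like cells (757.7 ± 371 CPM) held levels of Igf2 within the spread of the mesenchymal-like ones.

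H19, a maternally expressed long noncoding RNA that shares enhancers with Igf2, followed the same order in part. It reached 2461 ± 830 CPM in mesenchymal-like and 1321 ± 445 CPM in mesothelial-like cells. Acinar-like cells held 991.8 ± 295 CPM and ductal-like cells 720.3 ± 369 CPM, so the epithelium kept a larger part of the stromal level of H19 than of Igf2. Alpha-like cells held 92.5 ± 141 CPM and beta-like cells 46.7 ± 41.8 CPM (n = 6), both below the macrophage-like mean of 138.1 ± 91.9 CPM (n = 7).

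Dlk1 and Meg3 lie in one domain and are expressed from opposite parental copies. Dlk1, a membrane protein related to the Notch ligands, was highest in mesenchymal-like cells (4668 ± 2671 CPM) and mesothelial-like cells (3369 ± 1440 CPM). Beta-like cells held 2017 ± 653 CPM and acinar-like cells 1714 ± 1216 CPM, and endothelial-like cells (133.1 ± 98.3 CPM) were as low as macrophage-like ones (128.4 ± 86.3 CPM). Meg3, a maternally expressed long noncoding RNA, was high in every epithelial, endocrine and stromal class, from 1592 ± 923 CPM in acinar-like to 6651 ± 1234 CPM in delta-like cells (n = 4). It was low in endothelial-like (359.4 ± 170 CPM) and macrophage-like cells (169.3 ± 139 CPM, n = 7).

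Mest, a paternally expressed enzyme of the alpha/beta hydrolase family, had its highest level in endothelial-like cells. It reached 3563 ± 928 CPM there and 1763 ± 562 CPM in mesenchymal-like cells, against 89.0 ± 72.1 CPM in ductal-like and 25.4 ± 23.9 CPM in beta-like cells (n = 6). Gnas, which encodes the stimulatory G protein alpha subunit, was highest in alpha-like (7815 ± 2662 CPM), beta-like (6799 ± 2583 CPM), Fev+-like (6487 ± 2632 CPM, n = 7) and endothelial-like cells (5232 ± 2284 CPM). The ranges of these 4 classes overlap, although the alpha-like CPM was above the beta-like CPM in 6 of 6 libraries. In ductal-like cells it was 963.2 ± 477 CPM. Peg3, a zinc finger protein, ran from 59.9 ± 43.3 CPM in macrophage-like to 1105 ± 324 CPM in alpha-like cells, and epsilon-like cells, outside the 11 classes, held 1446 and 1516 CPM.

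Nnat, a small membrane protein of the endoplasmic reticulum, was the most uneven of the 10 highest members. Its mean was 6499 ± 2643 CPM in beta-like cells (n = 6) and between 32.3 and 550.9 CPM in the other 10 classes, with mesothelial-like cells (550.9 ± 153 CPM) and delta-like cells (522.7 ± 135 CPM, n = 4) next. Neural crest and glia, outside these classes, held from 193.6 CPM (E17.5) to 1534 CPM (E14.5) of Nnat in SW libraries. Grb10, an adaptor that binds the insulin and IGF1 receptors, ran from 27.5 ± 19.3 CPM in macrophage-like to 417.7 ± 129 CPM in ductal-like cells. Commd1, a regulator of copper handling and NF-kB, was the most even of the listed genes over these classes, at 158.6 ± 31.0 CPM in Ngn3+-like to 233.3 ± 48.3 CPM in endothelial-like cells.

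**Figure D1:**
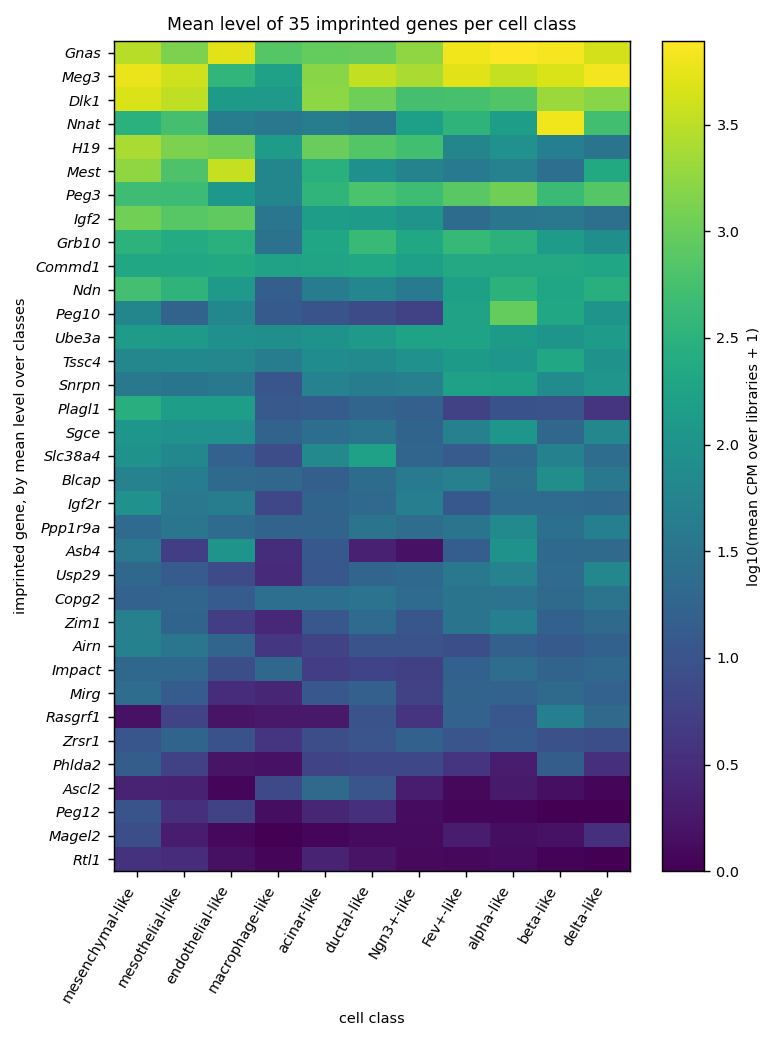
Mean level of the 35 imprinted genes (rows, ordered by their mean over classes) in 11 cell classes (columns), as log10 of the mean CPM over libraries plus 1. Nnat stands out in beta-like, Peg10 in alpha-like and Mest in endothelial-like cells, and the macrophage-like column is the darkest for 19 genes.

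The share of cells with a UMI followed the levels. After each cell was thinned to 2000 UMIs, a UMI of Nnat was found in 79.4 to 95.1% of beta-like cells across libraries and in 9.11 to 24.2% of alpha-like cells. The same share was 1.64 to 10.6% in macrophage-like and 0.323 to 11.6% in erythroid-like cells, which are taken here as the level of free RNA. For Peg10 it was 38.3 to 85.7% of alpha-like, 1.64 to 34.3% of beta-like, 0 to 5.69% of macrophage-like and 0 to 3.64% of erythroid-like cells. Without thinning the shares for Peg10 were 46.2 to 100% in alpha-like and 2.94 to 61.1% in beta-like cells. For Igf2 the thinned share was 40.4 to 96.4% of mesenchymal-like cells, 4.32 to 36.4% of ductal-like, 1.92 to 16.4% of alpha-like, 0.93 to 10.6% of macrophage-like and 0.826 to 15.1% of erythroid-like cells. Without thinning, the shares for Nnat were 88.0 to 98.1% in beta-like and 15.4 to 51.5% in alpha-like cells, and those for Igf2 were 69.1 to 100% in mesenchymal-like and 2.56 to 47.1% in alpha-like cells. The alpha-like shares of Igf2 thus overlapped those of blood cells, whereas the mesenchymal-like shares did not. Haemoglobin took 88.3% and 75.2% of erythroid-like UMIs at E12.5 (v1 and v2), which leaves few UMIs for other genes in the erythroid-like shares. With haemoglobin left out, erythroid-like cells held 18.8 to 474.9 CPM of Igf2 at E17.5 and up to 446.1 CPM at E14.5. The lowest mesenchymal-like level was 265.4 CPM, so in CPM these classes overlapped.

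Alpha-like cells were compared with beta-like cells of the same library, in the 6 libraries that held at least 20 of each. Of the 28 listed genes tested, 8 were higher in alpha-like cells and 6 were lower, by edgeR's quasi-likelihood test with the library as a block (adjusted p below 0.05 and at least 2-fold). By this rule 6.33% of all 6811 genes tested were called, 2.95% as higher and 3.38% as lower. The median log2 fold of the listed genes was 0.25, beside 0.03 for all genes. Of the paternally expressed genes tested, 4 of 14 were higher and 4 lower in alpha-like cells, and of the maternally expressed ones 3 of 12 were higher and 2 lower. Gnas and Grb10, whose expressed copy depends on the tissue or transcript, are counted apart, and Grb10 was the 1 of these 2 called higher. In these counts the expressed copy of every gene is the textbook one, and whether it holds in these cell classes was not tested. Fold changes come from scaled counts and are not ratios of CPM. The E17.5 v1 library held only 39 alpha-like cells, with 139991 UMIs. Low values in it, such as the 7.16 CPM that ends several ranges below, thus stand on few UMIs.

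All 4 listed genes of the Peg10 cluster on chromosome 6 were higher in alpha-like cells. Peg10, a paternally expressed gene derived from a retrotransposon (chr6:4747306-4760517), ran from 423.5 through a median of 810.9 to 2327 CPM in alpha-like cells and from 5.86 through 159.7 to 652.7 CPM in beta-like cells. It was higher in alpha-like cells of 6 of 6 libraries, although the ranges overlap, and 6.47-fold higher in the test (log2 2.69 ± 0.32 SE, adjusted p = 5.59e-06). Both E17.5 libraries had little Peg10 in beta-like cells (5.86 and 18.2 CPM) and had the largest log2 ratios between the classes, with 0.5 UMI added to each sum (6.38 and 5.16), against 1.83 to 2.25 in the 4 libraries at E14.5. The 5.86 CPM is that of the E17.5 v1 library and stands on few UMIs, so the size of its ratio, 6.38, is uncertain. Sgce, a sarcoglycan of the plasma membrane read in the other direction, with 98 bases between the 2 genes (chr6:4674350-4747207), lay at 66.1 to 117.3 CPM in alpha-like cells, median 93.8 CPM. Its beta-like range was 2.93 to 42.5 CPM, median 18.5 CPM, with no overlap, and it was 5.47-fold higher in alpha-like cells (log2 2.45 ± 0.22 SE, adjusted p = 1.87e-07). The beta-like level of Sgce was also lower at E17.5 (2.93 and 4.84 CPM) than in the E14.5 SW libraries (22.3 to 42.5 CPM), so this fold spans unlike stages.

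Asb4, a maternally expressed subunit that hands proteins to a ubiquitin ligase (chr6:5383386-5433022), lay at 43.0 to 135 CPM in alpha-like cells (median 75.9) and at 2.71 to 30.6 CPM in beta-like cells (median 23.1). The ranges do not overlap, and it was 5.79-fold higher in alpha-like cells (adjusted p = 8.77e-07). Its beta-like level was 2.71 and 11.7 CPM at E17.5, against 16.8 to 30.6 CPM in the E14.5 SW libraries. Ppp1r9a, an actin-binding scaffold of protein phosphatase 1 (chr6:4902917-5165661), lay at 21.5 to 113.2 CPM in alpha-like and 14.2 to 50.1 CPM in beta-like cells. It was higher in alpha-like cells of 6 of 6 libraries and 2.85-fold higher in the test (adjusted p = 4.48e-06), with ranges that overlap. Summed mesenchymal markers (6 genes) were also higher in alpha-like cells in 5 of the 6 libraries, at 18.99 to 154.8 CPM against 3.10 to 124.4 CPM, with up to 2 and 3 of the markers at 0, and their part in these differences was not tested. In mesenchymal-like cells themselves the 4 genes differed in level. Sgce had the same mean there as in alpha-like cells (108.5 ± 54.4 against 108.7 ± 49.7 CPM), while Peg10 stood at 59.7 ± 53.4 against 948 ± 660 CPM, Asb4 at 35.7 ± 21.1 against 100.3 ± 46.3 CPM and Ppp1r9a at 21.6 ± 6.40 against 68.5 ± 28.3 CPM (SD, n = 8 each).

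The Peg3 cluster of chromosome 7 went the same way with smaller folds. Peg3 (chr7:6703892-6730431), in whose promoter window above Usp29 also starts, lay at 630.1 to 1499 CPM in alpha-like cells (median 1049) and at 187.5 to 717.5 CPM in beta-like cells (median 417.9). It was 2.18-fold higher in alpha-like cells (log2 1.13 ± 0.09 SE, adjusted p = 7.07e-08), in 6 of 6 libraries, with ranges that overlap. Usp29, named for its similarity to deubiquitinating enzymes (chr7:6730578-6967219), lay at 14.3 to 114.9 CPM in alpha-like and 2.93 to 40.7 CPM in beta-like cells and was 2.14-fold higher (adjusted p = 1.61e-06). Zim1, a maternally expressed zinc finger gene of the cluster, was 2.73-fold higher (adjusted p = 3.69e-06), from 28.6 to 68.6 CPM in alpha-like cells against 0 to 25.5 CPM in beta-like cells. The 0 is that of the E17.5 v1 library. Grb10 lay at 249.9 to 422.3 CPM in alpha-like and at 79.1 to 214.2 CPM in beta-like cells. It was 2.05-fold higher in alpha-like cells (adjusted p = 5.94e-08), just past the 2-fold limit. Its log2 fold was under that limit in 4 alternatives, at 0.99 without the E17.5 v1 library, 0.96 with clustering at resolution 2, 0.94 with the listed genes not held out of clustering and 0.90 with counts split in 2 parts.

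Nnat and its host Blcap were both lower in alpha-like cells. Nnat (chr2:157560078-157562522) lay at 50.1 to 221.2 CPM in alpha-like cells, median 182.1 CPM, and at 3736 to 11400 CPM in beta-like cells, median 6114 CPM. No library overlapped and the fold was 39.9 (log2 -5.32 ± 0.27 SE, adjusted p = 3.1e-10), the largest of the listed genes in this comparison. Blcap (chr2:157556362-157571274), a small protein that is edited at the RNA level, lay at 7.16 to 35.2 CPM in alpha-like and 48.5 to 127.5 CPM in beta-like cells, and was 2.87-fold lower in alpha-like cells (adjusted p = 6.66e-07). Nnat lies within Blcap on the other strand, so reads of one could be counted for the other.

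Dlk1 (chr12:109452823-109463336) was 3.74-fold lower in alpha-like cells (log2 -1.90 ± 0.24 SE, adjusted p = 1.28e-05). It lay at 207.6 to 1065 CPM in alpha-like cells (median 671.2) and at 1274 to 2848 CPM in beta-like cells (median 1936), with no overlap. Alpha-like cells held 207.6 and 329 CPM of it at E17.5, against 749.6 to 1065 CPM in the E14.5 SW libraries. Meg3, of the same domain, was also lower in alpha-like cells of 6 of 6 libraries (adjusted p = 3.72e-05), but by less than 2-fold (log2 -0.55 ± 0.08 SE). Of the domain, Dlk1 thus passed both limits, Meg3 passed only the adjusted p and Mirg passed neither (log2 -0.36 ± 0.17 SE, adjusted p = 0.117).

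A further 3 genes were lower in alpha-like cells. Rasgrf1, an exchange factor that activates Ras, lay at 7.16 to 16.1 CPM in alpha-like and 20.4 to 111.3 CPM in beta-like cells and was 4.04-fold lower (adjusted p = 7.09e-06). Slc38a4, an amino acid transporter, was 3.09-fold lower (adjusted p = 1.85e-07), at 7.16 to 37.5 CPM against 34.8 to 66.3 CPM. Tssc4 was 2.55-fold lower (adjusted p = 1.21e-07), at 58.7 to 136 CPM against 136.3 to 260.1 CPM. Slc38a4 was lower in 6 of 6 libraries but its ranges overlap, and those of Rasgrf1 and Tssc4 do not.

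Of the other 14 listed genes tested, Snrpn, a splicing protein (log2 0.92 ± 0.09 SE), Ndn, a growth suppressor of the MAGE family (0.70 ± 0.09), Commd1 (-0.27 ± 0.08) and Meg3 passed the adjusted p but not the 2-fold limit. Gnas, the highest of all, had a log2 fold of 0.01 ± 0.07 SE between the classes. Igf2 (-0.51 ± 0.21, adjusted p = 0.0801) and H19 (-0.26 ± 0.16, adjusted p = 0.26) were not called. In the libraries compared here, none of them at E12.5, alpha-like cells held 7.16 to 46.7 CPM of Igf2 and 9.98 to 75.0 CPM of H19. These ranges overlap those of macrophage-like cells (15.2 to 72.5 and 20.6 to 239.4 CPM), which take in E12.5. At E12.5 alpha-like cells reached 99.6 CPM of Igf2 and 437.4 CPM of H19, against 45.3 and 226.1 CPM in macrophage-like cells. Beta-like cells reached 96.9 CPM of Igf2 and 102 CPM of H19. With version 1 libraries alone 10 of 19 listed genes tested were called, beside 7.56% of all 4168 genes, and with version 2 libraries alone 14 of 30, beside 8.63% of all 10929 genes. Without the library block, Peg10 (adjusted p = 0.0585) and Usp29 (adjusted p = 0.3) were no longer called. Scaling by class totals alone shifted the median of all genes to 0.27 and gave 335 genes higher and 152 lower, in place of 201 and 230, while 9 listed genes were then higher and 6 lower.

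**Figure D2:**
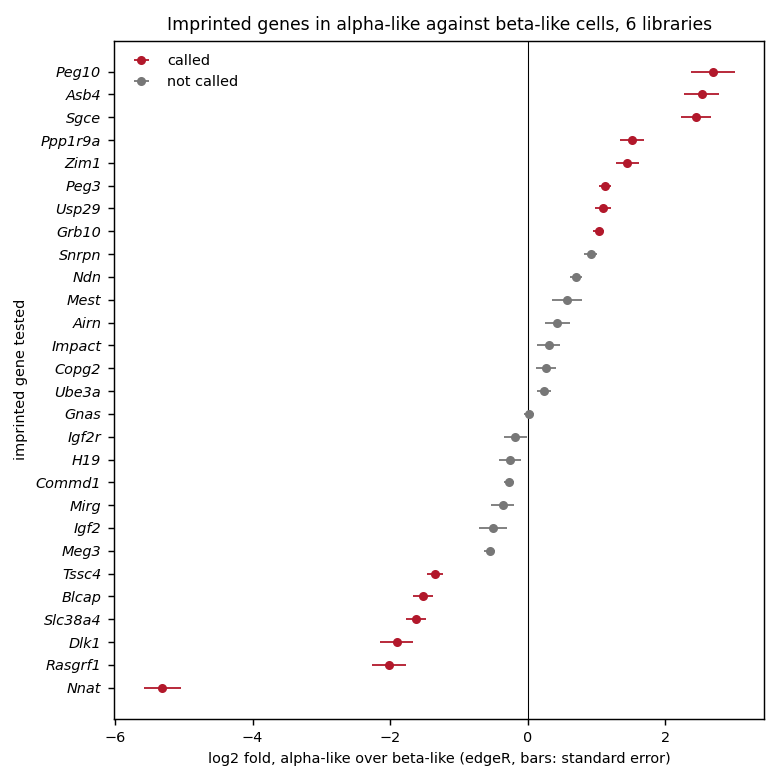
Log2 fold of the 28 imprinted genes tested in alpha-like over beta-like cells (points), with the standard error of the fit over 6 libraries (bars). Red points were called. Peg10, Asb4 and Sgce lie at the right end, at 2.45 to 2.69, and Nnat at the left end, at -5.32.

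**Figure D3:**
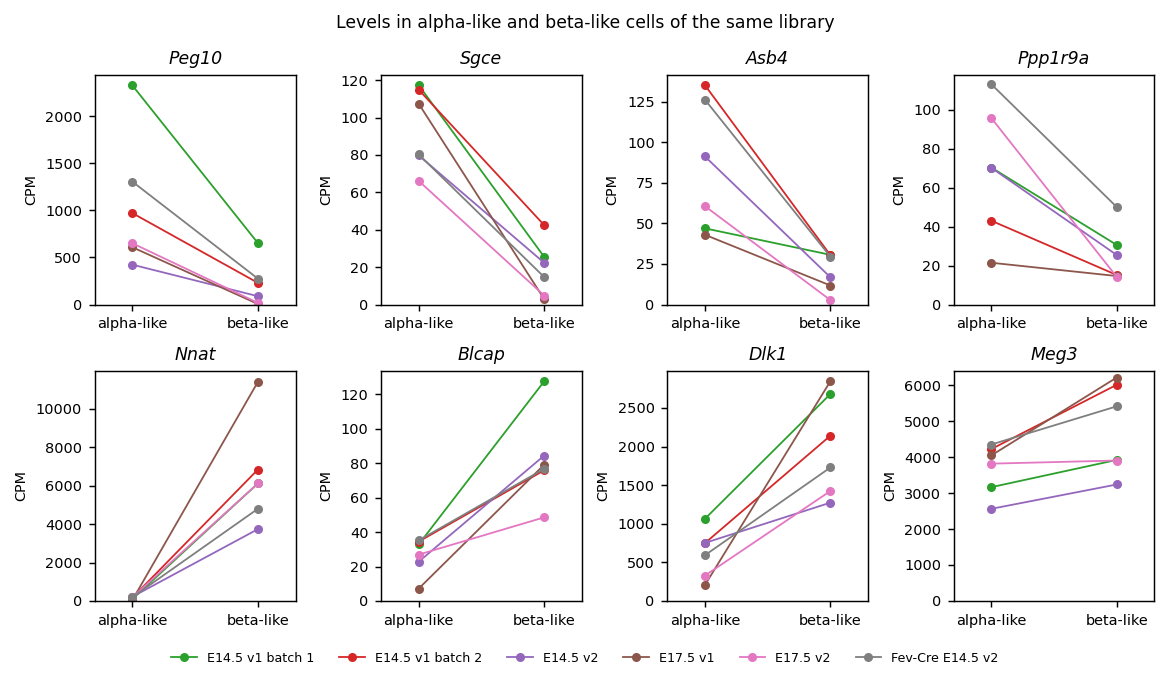
CPM of 8 genes in alpha-like and beta-like cells, with a line for each of the 6 libraries. Every line falls from alpha-like to beta-like for Peg10, Sgce, Asb4 and Ppp1r9a, and every line rises for Nnat, Blcap, Dlk1 and Meg3.

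Precursor classes on the endocrine path were described by their levels, with no test. Ngn3+-like cells express the transcription factor that commits a cell to the endocrine lineage, and Fev+-like cells are endocrine precursors that follow them. Peg10 had 0 to 23.2 CPM in Ngn3+-like cells of 7 libraries and 9.34 to 482.9 CPM in Fev+-like cells of 7 libraries, against 227.1 to 2327 CPM in alpha-like cells of 8. Its low levels in Ngn3+-like cells did not overlap those of alpha-like cells. Asb4 followed, with 0 to 2.57 CPM in Ngn3+-like, 0 to 35.3 CPM in Fev+-like and 43.0 to 164.3 CPM in alpha-like cells. Peg10 and Asb4 were thus nearly missing before the Fev+-like class in these libraries.

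Nnat was low in both precursors. It had 76.1 to 244.5 CPM in Ngn3+-like and 144.1 to 535.3 CPM in Fev+-like cells, and the lowest beta-like library (3736 CPM) lay above all of them. Gnas had 514.9 to 3820 CPM in Ngn3+-like cells and 2602 to 10420 CPM in Fev+-like cells, and in each of the 6 libraries with both classes the Fev+-like level was the higher one. H19 went the other way, from 66.4 to 950.9 CPM in Ngn3+-like to 14.7 to 129.6 CPM in Fev+-like cells, again in each of those 6 libraries.

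Mesenchymal-like cells were compared with ductal-like cells of the same library in all 8 libraries, as stroma against epithelium. Of 33 listed genes tested, 17 were higher in mesenchymal-like cells and 2 were lower. Of all 11879 genes tested, 26.9% were called, 14.7% as higher and 12.2% as lower. The median log2 fold was 1.17 for the listed genes and 0.03 for all genes. Of the paternally expressed genes tested, 11 of 17 were higher and 1 lower, and of the maternally expressed ones 5 of 14 were higher and 1 lower, with Gnas the 1 of the other 2 called higher.

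Mest had the largest fold. It lay at 1016 to 2422 CPM in mesenchymal-like cells (median 1828) and at 12.53 to 234.1 CPM in ductal-like cells (median 77.5), a 26.5-fold difference (log2 4.73 ± 0.38 SE, adjusted p = 1e-06) with no overlap. Plagl1, a zinc finger transcription factor, lay at 135.6 to 536 CPM against 12.1 to 31.5 CPM, 16.5-fold higher (log2 4.05 ± 0.17 SE, adjusted p = 9.54e-09). Igf2 lay at 265.4 to 1858 CPM (median 1127) against 21.3 to 241.2 CPM (median 149), 8.98-fold higher (adjusted p = 0.000117). All 3 were apart in every library.

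Further genes higher in stroma were Asb4, at 6.88 to 61.7 CPM against 0 to 3.13 CPM (12.2-fold, adjusted p = 4.37e-05), and Peg10, at 5.90 to 161.7 CPM against 0.832 to 22.7 CPM (9.13-fold, adjusted p = 1.74e-06). Ndn lay at 174 to 1396 CPM against 29.4 to 118.8 CPM (7.74-fold, adjusted p = 2.21e-05). Nnat lay at 44.1 to 1123 CPM against 15.3 to 67.1 CPM (7.06-fold, adjusted p = 9.95e-06). The ranges of Peg10 and Nnat overlap across libraries, and within each library the mesenchymal-like level was the higher one in 8 of 8.

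Airn and Igf2r, which overlap on opposite strands and of which Airn silences Igf2r on the paternal copy, were both higher in mesenchymal-like cells. Airn lay at 33.4 to 60.4 CPM against 3.60 to 18.1 CPM (5.51-fold, adjusted p = 7.7e-07). Igf2r, the receptor that takes IGF2 to the lysosome, lay at 40.9 to 189.1 CPM against 9.06 to 32.7 CPM (4.76-fold, adjusted p = 7.96e-08). The remaining 8 genes higher in stroma were Peg12, Dlk1, H19, Impact, Gnas, Sgce, Zim1 and Blcap, at 2.24-fold to 4.33-fold. Of these, Peg12 was higher in mesenchymal-like cells in 7 of 8 libraries and Zim1 in 6 of 8. In both E12.5 libraries Zim1 was higher in ductal-like cells, at 174 and 118% of the mesenchymal-like level (v1 and v2). Zim1 was not called without the E17.5 v2 library (log2 fold 0.95) or with v2 libraries only (1.085, adjusted p = 0.1495), and Blcap was not called with v2 libraries only (0.95). With acinar-like in place of ductal-like cells, H19 had a log2 fold of 0.94 and Dlk1 one of 1.22 (adjusted p = 0.0529), and neither was called.

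Rasgrf1 and Ascl2 were lower in mesenchymal-like cells, both from low levels. Rasgrf1 lay at 0 to 1.33 CPM in mesenchymal-like and 1.81 to 19.7 CPM in ductal-like cells (13.7-fold, adjusted p = 6.89e-06). Ascl2, a transcription factor known from placenta and gut stem cells, lay at 0.326 to 3.44 CPM against 3.79 to 16.4 CPM (7.04-fold, adjusted p = 4.59e-05). The ranges of both genes were apart.

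The change from E12.5 to E17.5 was tested in 7 classes over the SW libraries of all 3 stages, with the kit version as a covariate. The kit also stands for the CD140a depletion. Tissue of later stages was dissociated for longer, so stage and dissociation cannot be told apart.

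In mesenchymal-like cells 3 of 34 listed genes were called, 1 higher and 2 lower, beside 10.6% of all 12241 genes (8.14% higher and 2.46% lower). The numbers of listed genes called higher and lower differed under other settings. They were 5 and 2 by DESeq2 or without E14.5 v1 batch 1, and 4 and 2 without E14.5 v2 or at resolution 2. They were 3 and 2 with haemoglobin left out, with counts split or with the listed genes not held out of clustering. With no filter on low counts they were 7 and 3, and without E12.5 v2 they were 2 and 1. With v1 libraries only they were 3 and 1, beside 7.79% of all 12958 genes. Without E12.5 v1, without E17.5 v1 or with the kit left out, 2 were lower and none higher by edgeR. The number of all genes called moved with the setting as well, as given further below. Among all genes rises already outnumbered falls in the main fit, so these counts are not read as a result about the listed genes. Nnat fell from 1123 and 535.7 CPM at E12.5 (v1 and v2) to 98.3, 121.4 and 174.5 CPM at E14.5 and 44.1 and 92.8 CPM at E17.5, an 11.7-fold fall (adjusted p = 0.00487). Both E12.5 libraries were above all later ones. Phlda2, which restrains growth of the placenta, fell from 18.2 and 17.4 CPM to 3.93 and 1.76 CPM (5.92-fold, adjusted p = 0.0113). Sgce rose from 78.1 and 46.5 CPM to 219.3 and 108.8 CPM (2.89-fold, adjusted p = 0.00956).

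H19 and Dlk1 lay just outside the threshold in mesenchymal-like cells, and Igf2 was not called (adjusted p = 0.216). Igf2 was at 660.8 and 795.9 CPM at E12.5 and at 1316 and 1858 CPM at E17.5, H19 at 1415 and 1563 against 3415 and 3049 CPM (adjusted p = 0.0532), and Dlk1 at 3404 and 2190 against 10180 and 4539 CPM (adjusted p = 0.0504). Each of the 3 genes had its higher values at E17.5. H19 and Dlk1 were each called higher in 9 of 20 alternatives, among them DESeq2 (adjusted p = 0.000485 and 0.000675), Zim1 in 7, Ndn in 5 and Igf2 in 2. Sgce lost its call without the E12.5 v1 library (adjusted p = 0.102), without the E12.5 v2 library (0.0558) or without the E17.5 v1 library (0.116). Phlda2 lost its call without the E12.5 v2 library (adjusted p = 0.0689) or the E17.5 v2 library (0.103).

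In mesothelial-like cells, which line the surface of the organ, 6 of 32 listed genes were called, 3 higher and 3 lower, beside 18.9% of all 11846 genes (11.5% higher and 7.41% lower). Dlk1 rose from 2138 and 1589 CPM to 5753 and 4269 CPM (2.8-fold, adjusted p = 0.00568). Sgce rose from 67.6 and 42.7 CPM to 166.1 and 104.3 CPM (2.49-fold, adjusted p = 0.00401), and H19 from 800 and 898.9 CPM to 1628 and 2127 CPM (2.29-fold, adjusted p = 0.0135). For these 3 genes both E17.5 libraries lay above both E12.5 libraries.

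Snrpn, Peg10 and Phlda2 fell in the same class. Snrpn fell from 59.7 and 42.9 CPM to 27.7 and 11.2 CPM (3.27-fold, adjusted p = 0.0025). Peg10 fell from 31.8 and 7.79 CPM to 0 and 1.80 CPM (4.18-fold, adjusted p = 0.0148), and Phlda2 from 11.7 and 5.01 CPM to 0 and 1.45 CPM (4.76-fold, adjusted p = 0.0454). The E17.5 v1 library held only 49 mesothelial-like cells, and a 0 there stands on few UMIs. The 6 calls were 1 without the E12.5 v2 library, 3 without E12.5 v1, 10 without E14.5 v1 batch 1 and none by edgeR without the E17.5 v2 library. The number of all genes called moved with the library left out as well, as given further below, so these counts are not a result about the listed genes. The Phlda2 call was lost in 9 of 19 alternatives, among them DESeq2 (adjusted p = 0.0667) and doublets kept in (0.0696).

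In endothelial-like cells 2 of 19 listed genes were called, both lower, beside 2.92% of all 5304 genes (0.679% lower). Asb4 fell from 193.5 and 106.6 CPM to 53.4 and 39.5 CPM (2.94-fold, adjusted p = 0.0154), and Nnat from 67.0 and 87.3 CPM to 5.93 and 28.6 CPM (3.63-fold, adjusted p = 0.047). Mest, the most abundant listed gene of this class after Gnas, was at 4258 and 2373 CPM at E12.5 and at 4633 and 2886 CPM at E17.5. It was not called, and its level differed more between kits than between stages. Neither call held without either the E12.5 v1, the E12.5 v2 or the E17.5 v1 library, where the adjusted p of Asb4 was 0.16, 0.156 and 0.0693 and that of Nnat 0.0715, 0.684 and 0.241. Without the E17.5 v2 library that of Asb4 was 0.294. DESeq2 did not call Nnat.

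In acinar-like cells, which make digestive enzymes, 11 of 33 listed genes were called, 10 lower and 1 higher, beside 21% of all 11651 genes (11.1% higher and 9.9% lower). Of the paternally expressed genes tested, 7 of 17 were lower, of the maternally expressed ones 2 of 14 were lower and 1 higher, and of Gnas and Grb10 the latter was lower. The median log2 fold was -0.62 for the listed genes and -0.04 for all genes. Over the same stages the summed acinar markers rose from 11420 and 15890 CPM to between 149000 and 158000 CPM, and their part in the CPM of other genes was not tested. Summed cycling markers in acinar-like cells stood at 555.4 to 698.9 CPM at E12.5 and at 108.5 to 344.7 CPM at E17.5. Their part in the falls was not tested. The test was made on scaled counts.

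Mest fell from 635.5 and 364.2 CPM at E12.5 to 33.4 and 37.4 CPM at E17.5 in acinar-like cells (7.27-fold, adjusted p = 1.7e-06). Dlk1 fell from 3914 and 2037 CPM to 283.8 and 281.8 CPM (6.08-fold, adjusted p = 1.62e-05), and Grb10 from 354.1 and 315.6 CPM to 41.7 and 34.6 CPM (5.53-fold, adjusted p = 3.7e-06). These 3 genes held their calls in all 19 alternatives. For each of them all 3 E14.5 libraries lay above both E17.5 libraries.

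Slc38a4 fell from 147.2 and 67.8 CPM to 16.7 and 6.74 CPM (6.19-fold, adjusted p = 1.5e-05), Igf2 from 136.1 and 241 CPM to 16.7 and 25.6 CPM (4.38-fold, adjusted p = 0.00155), and Peg3 from 546.1 and 785.9 CPM to 50.1 and 150 CPM (3.7-fold, adjusted p = 0.00044). Meg3 fell from 3219 and 2522 CPM to 684.5 and 538.4 CPM (3.09-fold, adjusted p = 0.00141). In each of these genes both E17.5 libraries lay below both E12.5 libraries. Zim1, Ndn and Rtl1 were also called lower and Igf2r higher, on levels of 0 to 70.8 CPM.

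Several acinar-like calls rested on 1 library. The E17.5 v1 library held 36 acinar-like cells, and without the E17.5 v2 library 4 listed genes were called. Without that library the adjusted p was 0.102 for Igf2, 0.0635 for both Meg3 and Slc38a4 and 0.74 for Zim1, the log2 fold of Ndn turned to 0.26 and that of Igf2r to -0.84 (adjusted p = 0.899 and 0.798). Without the E12.5 v2 library 6 were called. All genes called in this class also moved in number with the library left out, as given further below. The adjusted p was then 0.478 for Igf2, 0.494 for Zim1, 0.343 for Ndn, 0.232 for Igf2r and 0.826 for Rtl1, whose log2 fold turned to 4.65. Without E12.5 v1 the adjusted p of Igf2r was 0.0727. Beside the reversals, the call was lost in 8 of 19 alternatives for Igf2r, 5 of 19 for Ndn and 3 of 17 for Rtl1, DESeq2 among them for all 3.

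In ductal-like cells 8 of 31 listed genes were called, each of them lower, beside 6.61% of all 10295 genes (4.61% higher and 1.99% lower). Mest fell from 234.1 and 97.4 CPM to 34.5 and 12.53 CPM (6.92-fold, adjusted p = 0.000109), and H19 from 860.7 and 1005 CPM to 136.2 and 185.8 CPM (5.35-fold, adjusted p = 0.00045). H19 was still at 738.8 to 1161 CPM in the 3 E14.5 libraries, so its fall came between E14.5 and E17.5. Igf2 fell from 165.7 and 201.7 CPM to 21.3 and 40.0 CPM (5.06-fold, adjusted p = 0.00918), and Zim1 from 50.4 and 31.8 CPM to 8.21 and 6.11 CPM (5.02-fold, adjusted p = 0.00294).

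Peg3, Dlk1, Snrpn and Ndn fell by 2.18-fold to 2.66-fold in ductal-like cells. Peg3 went from 849.9 and 1111 CPM to 287.2 and 398.9 CPM (adjusted p = 0.0113), and Dlk1 from 2067 and 1093 CPM to 590.9 and 465.6 CPM (adjusted p = 0.0185). Meg3 was at 3954 and 2241 CPM at E12.5 and at 5380 and 4054 CPM at E17.5 and was not called. Of this domain, then, Dlk1 fell in ductal-like cells while Meg3 did not pass the test.

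Free RNA from stroma was measured beside these falls. Mesenchymal markers stood in ductal-like cells at 0.914 and 1.09% of their mesenchymal-like level at E12.5 and at 0.408 and 0.238% at E17.5. The ductal-like level of Igf2 was 25.1 and 25.4% of the mesenchymal-like level at E12.5 and 1.62 and 2.15% at E17.5. In macrophage-like cells the mesenchymal markers stood at 3 and 3.06% at E12.5 and at 0.225 and 1.03% at E17.5, and Igf2 at 4.29 and 5.69% at E12.5 and at 1.34 and 0.816% at E17.5. At E17.5 Igf2 was at 21.3 CPM in ductal-like against 17.6 CPM in macrophage-like cells in v1 and at 40.0 against 15.2 CPM in v2. The part of free RNA in the ductal-like falls was not tested. Summed cycling markers in ductal-like cells stood at 594.2 to 863.9 CPM at E12.5 and at 190.4 to 741.7 CPM at E17.5, and their part was not tested either.

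Without the E12.5 v2 library 2 of the listed genes were called in ductal-like cells, and without the E17.5 v2 library 3. All genes called in this class also moved in number with the library left out, as given further below. Mest and H19 held their calls in all 19 alternatives. Igf2 lost its call without E12.5 v2 (adjusted p = 0.435), and Zim1 without E12.5 v2 (0.253) or E17.5 v2 (0.0631). Peg3 lost its call without E12.5 v2 (adjusted p = 0.378), E17.5 v1 (0.0641) or E17.5 v2 (0.0849), and Dlk1, Snrpn and Ndn each lost theirs without any of 4 or more libraries. In the other direction, Rasgrf1 (log2 2.25, adjusted p = 0.061) and Sgce (1.38, 0.0722) were called higher in 6 and 5 of 19 alternatives, no filter on low counts among them for both.

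In alpha-like cells 4 of 25 listed genes were called, each of them lower, beside 4.72% of all 5990 genes (2.24% lower). Dlk1 fell from 885 and 871.2 CPM to 207.6 and 329 CPM (3.06-fold, adjusted p = 0.0133). H19 fell from 58.3 and 437.4 CPM to 21.5 and 9.98 CPM (adjusted p = 0.000569), Igf2 from 34.4 and 99.6 CPM to 7.16 and 9.75 CPM (adjusted p = 0.00392), and Mest from 53.0 and 100.9 CPM to 50.1 and 9.28 CPM (adjusted p = 0.024). The E12.5 v2 library carried the highest values of H19, Igf2 and Mest. The E17.5 v1 library held only 39 alpha-like cells, so its values of these 3 genes stand on few UMIs.

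Alpha-like cells of the E12.5 v2 library held 456 CPM of summed cycling markers, against 34.4 CPM in E12.5 v1 and 0 to 18.3 CPM at E17.5, and the part of this in the falls was not tested. Igf2 in alpha-like cells stood at 5.21 and 12.51% of the mesenchymal-like level at E12.5, beside 5.21 and 4.11% for the mesenchymal markers. None of the 4 genes was called by edgeR without the E12.5 v2 library, where the adjusted p was 0.0753 for Dlk1, 0.313 for H19, 0.723 for Igf2 and 0.882 for Mest, or without the E17.5 v2 library, where it was 0.163, 0.517, 0.512 and 0.799. Dlk1 was also lost without E17.5 v1 (adjusted p = 0.255) and Mest without E14.5 v2 (0.0628). The Mest call was lost in 8 of 18 alternatives, among them DESeq2 (adjusted p = 0.163), clustering at resolution 2 (0.651, log2 fold -0.46) and the listed genes not held out of clustering (0.129). Meg3, Gnas and Peg3, the 3 most abundant listed genes of this class, were not called, and Peg3 was at 826.7 and 1440 CPM at E12.5 and at 630.1 and 1439 CPM at E17.5.

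In macrophage-like cells, which serve as a class with low levels, none of 20 listed genes was called by edgeR over 6 libraries, beside 1.57% of all 7722 genes (1.46% higher and 0.104% lower). Of these, 9 had an unadjusted p below 0.05, and DESeq2 called 1. The median log2 fold was -1.13 for the listed genes and -0.02 for all genes. The count was 9 without E14.5 v1 batch 1, 7 without E14.5 v2 and 3 without E12.5 v1. The number of all genes called moved with the library left out too, as given further below, so these counts are not a result about the listed genes. Of the 20 genes, 17 had a fitted level that was lower at E17.5, in a class that holds little of them.

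**Figure D4:**
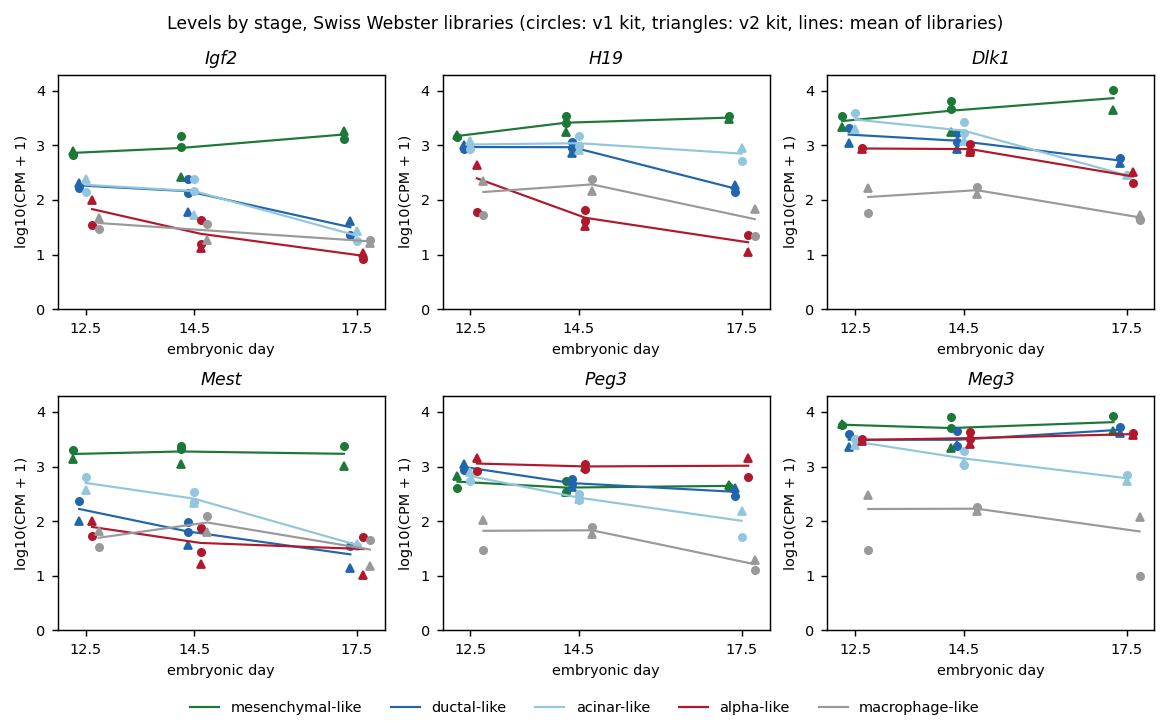
Levels of 6 genes by embryonic day in 5 classes of the SW libraries, as log10 of CPM plus 1 (circles for v1, triangles for v2 libraries, lines through the mean of each stage, classes shifted sideways). Igf2, H19 and Mest are high in mesenchymal-like cells at every stage and fall in ductal-like cells, and Meg3 falls in acinar-like cells.

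**Figure D5:**
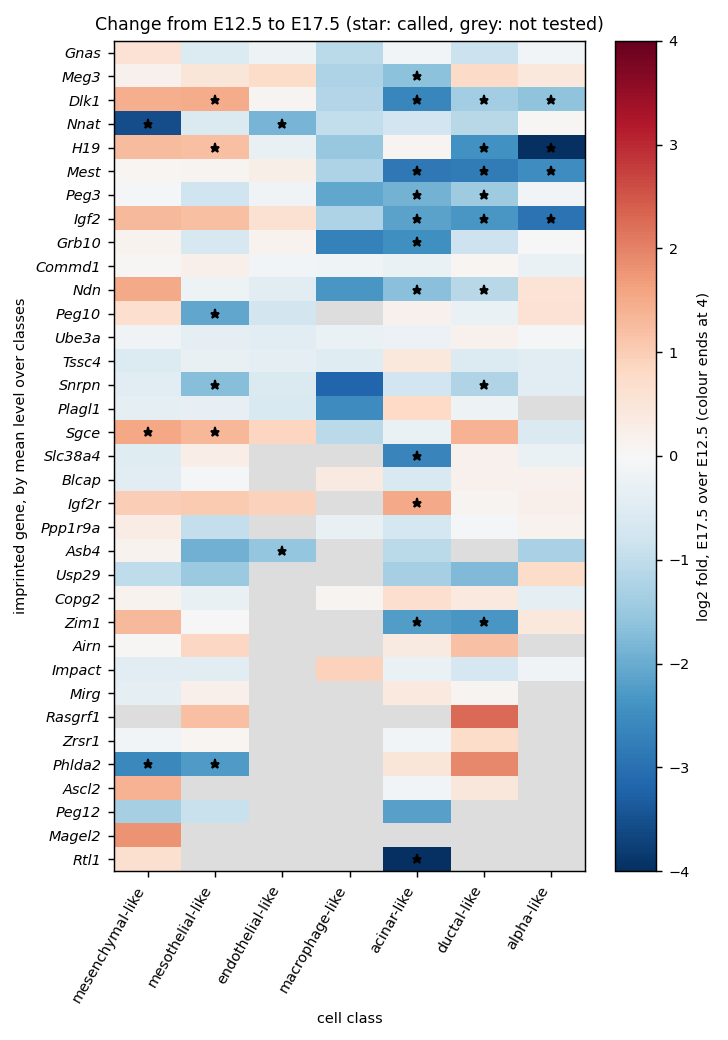
Log2 fold from E12.5 to E17.5 for each listed gene tested (rows) in 7 classes (columns), with blue for lower and red for higher at E17.5 and grey where a gene was not tested. Stars mark the called genes, 11 of them in acinar-like, 8 in ductal-like and 3 in mesenchymal-like cells.

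Whether the change with stage differed between mesenchymal-like and ductal-like cells was tested as an interaction over the 7 SW libraries. Of 35 listed genes, 10 were called, beside 3.81% of all 13239 genes. In 8 of them the change was higher in mesenchymal-like cells (2.67% of all genes) and in 2 it was lower (1.13%). The median of the listed genes was 0.26 on the log2 scale, beside 0.02 for all genes.

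Igf2 had the largest positive difference, 3.73 ± 0.31 SE on the log2 scale (adjusted p = 0.0003), with levels that were higher at E17.5 in both kits in mesenchymal-like cells and lower in ductal-like cells. H19 followed with 3.71 ± 0.29 (adjusted p = 0.00023), Zim1 with 3.53 ± 0.41 (adjusted p = 0.00146), Dlk1 with 2.89 ± 0.39 (adjusted p = 0.00379) and Mest with 2.81 ± 0.29 (adjusted p = 0.000757). These 5 genes held their calls in all 16 alternatives. Mest differed from the others in that its mesenchymal-like level was much the same at both stages, 2026 and 1368 CPM at E12.5 and 2404 and 1016 CPM at E17.5.

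Ndn (2.56 ± 0.55, adjusted p = 0.0304), Gnas (1.42 ± 0.33, adjusted p = 0.0404) and Peg3 (1.36 ± 0.24, adjusted p = 0.0112) were also called higher. Ndn and Peg3 each lost their calls without E12.5 v1 (adjusted p = 0.148 and 0.096), E12.5 v2 (0.263 and 0.112) or E17.5 v1 (0.0716 and 0.0779), and Gnas without E12.5 v1 (0.11), E12.5 v2 (0.345), E14.5 v1 batch 1 (0.0727) or E17.5 v2 (0.159). With all libraries kept, Gnas was also lost with class totals only (adjusted p = 0.0782), at resolution 2 (0.06), with the listed genes not held out of clustering (0.0574) and with doublets kept in (0.0606), so 8 of 16 alternatives ended its call. Phlda2 (-4.22 ± 0.91, adjusted p = 0.0306) and Nnat (-1.94 ± 0.37, adjusted p = 0.0171) were lower. Phlda2 lost its call without E12.5 v1 (adjusted p = 0.0756), E12.5 v2 (0.295) or E17.5 v2 (0.291), and Nnat without E12.5 v1 (0.0512) or E17.5 v2 (0.107). Over the 16 alternatives the call was lost in 5 for Ndn, 4 each for Phlda2 and Nnat and 3 for Peg3. The v2 mesenchymal-like cells are those left by the CD140a depletion at each stage, and stage and this selection were not separated.

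Other imprinted genes, the IGF pathway and the factors that maintain imprints were listed for comparison. Of 13 other imprinted genes tested in alpha-like against beta-like cells, 3 were higher, Pon3 (log2 2.22), Dcn (1.14) and Pon2 (1.02), and Trappc9 was lower (-1.13), beside 2.95% and 3.38% of all genes. In mesenchymal-like against ductal-like cells 9 of 26 were higher, led by Dcn (7.01), Klf14 (6.49) and Dio3 (5.23), and 4 were lower, led by Kcnq1 (-3.84), Cobl (-3.49) and Slc22a18 (-2.29), beside 14.7% and 12.2% of all genes. The median was 0.69 there, against 1.17 for the listed genes above. From E12.5 to E17.5 in acinar-like cells 7 of 21 were higher and 6 lower, beside 11.1% and 9.9% of all genes and 1 higher and 10 lower of the 33 listed genes. In ductal-like cells 5 of 20 were higher and 3 lower, beside 4.61% and 1.99% of all genes. In mesothelial-like cells 6 of 25 were higher and 2 lower, beside 11.5% and 7.41%. In mesenchymal-like cells 5 of 26 were higher (8.14% of all genes) and none lower, and in alpha-like cells 1 of 12 was lower (2.24%) and none higher. Cdkn1c, a maternally expressed inhibitor of the cell cycle, fell in acinar-like (-1.94), ductal-like (-1.16) and alpha-like cells (-2.11).

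In the IGF pathway, Igf1r, the receptor for IGF1 and IGF2, was lower in alpha-like than in beta-like cells (log2 -1.84), and the IGF binding proteins Igfbp2 (1.81) and Igfbp5 (1.43) were higher. Of 14 genes of the pathway, 6 were higher in mesenchymal-like than in ductal-like cells, led by Igfbp3 (6.86), Igfbp6 (5.04) and Igf1 (4.31), beside 14.7% of all genes. From E12.5 to E17.5, Igf2bp1, which binds Igf2 mRNA, fell in acinar-like (-4.54), alpha-like (-2.80), mesothelial-like (-2.42), ductal-like (-1.86) and mesenchymal-like cells (-1.25). Among the factors that maintain imprints, Zfp57 was higher in mesenchymal-like than in ductal-like cells (2.83), the only one of 13 tested to be called there. Trim28, its partner in silencing, fell with stage in mesenchymal-like (-1.33), mesothelial-like (-1.45) and acinar-like cells (-1.42). None of the 8 factors tested between alpha-like and beta-like cells was called by edgeR, though Tet3 (-0.70) and Dnmt3a (-0.30) passed the adjusted p at less than 2-fold.

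Over the 10 comparisons 29 of the 35 listed genes were called at least once, beside 45.5% of all 14331 genes tested at least once. Mirg, Magel2, Zrsr1, Ube3a, Copg2 and Commd1 were not called in any, of which Ube3a, a ubiquitin ligase, and Commd1 were tested in all 10 and Magel2 in 2. Dlk1 was called in 7 comparisons, and Igf2, H19, Mest, Nnat and Zim1 in 5 each. Magel2, Peg12 and Rtl1 had class means of at most 9.33 CPM and were tested in 2, 5 and 3 comparisons. Peg12 and Rtl1 were each called in 1 of these. Whether a change in them could be detected at this depth elsewhere was not tested.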

How the data were processed

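Single-cell RNA-seq libraries of embryonic mouse pancreas were made with 10x 3′ kits (versions 1 and 2). The authors aligned reads to mm10 with Cell Ranger (1.1 and 2.1 in the submitters' processing notes) and deposited matrices of UMI counts for each gene and barcode, not normalized. For the Fev-Cre pool, the matrix aligned with the reporter sequences was used and the other alignment of the same library was left out. The 2 wells of E17.5 v2 came from the same pancreata and were summed as 1 sample. Barcodes with at least 200 genes were kept and clustered on 2000 variable genes, from which all listed genes were held out, with 20 principal components (leidenalg 0.10.2, resolution 1, and 2 for endocrine cells). Classes were named from marker lists, with score limits set after the clusters were seen. Cells with marker programmes of more than 1 class, each above 30% of its usual share, were set aside as doublets.

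UMIs were summed for each pool and class with at least 20 cells. The sums were tested with edgeR 4.0.16 (quasi-likelihood, TMM, filter on low counts, Benjamini-Hochberg over all genes tested), tested on simulated data first, and DESeq2 1.42.0 was an alternative. SE is the size of the log2 fold divided by the square root of F. The library was a block for comparisons of classes: gene deviations correlated at 0.676 to 0.904 between alpha-like and beta-like cells of 1 library and at up to 0.643 between libraries, and at 0.654 to 0.861 against up to 0.649 for mesenchymal-like and ductal-like cells, which come from the same pancreata. CPM leave out 10 haemoglobin genes. Intervals and floors (3 counts) cover counting error only. Genes with full values were those called, up to the 10 largest folds in each comparison, and the 10 with the highest mean. The genes, the lists and the tests were chosen with earlier results of these data known. Positions are from GENCODE M21 and promoters from RefSeq, both on GRCm38.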

Additional observations from a re-analysis of the deposited data

Results flagged for a closer look

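Zim1 had a log2 ratio of 4.46 between alpha-like and beta-like cells in the E17.5 v1 library, where the next highest of the 6 libraries had 2.11. This library was far from the others, with a gap of 0.692 of the whole range against a critical value of 0.625. Beta-like cells of this library held 0 UMIs of Zim1 and its alpha-like cells held 4, so the ratio is set by the 0.5 UMI added to each sum and its size cannot be read as a measured fold. Of 33 groups examined 1 stood out in this way, and chance gives about 1 in 20.

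The change from E12.5 to E17.5 differed between mesenchymal-like and ductal-like cells by the interaction test for 10 listed genes. On the log2 scale, the change was higher in mesenchymal-like cells for Igf2 (3.73), H19 (3.71), Zim1 (3.53), Dlk1 (2.89), Mest (2.81), Ndn (2.56), Gnas (1.42) and Peg3 (1.36), and lower for Nnat (-1.94) and Phlda2 (-4.22).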

How the results depend on the processing

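Each result was recomputed with other scalings, DESeq2, no filter on low counts, other cell groupings, doublets kept in, another block and each library left out. Haemoglobin left out of the fit and each kit alone were added after seeing the data. Of the values for listed genes, 444 kept their call, 85 lost it and 3 reversed when each library was left out in turn, and 834 kept it and 68 lost it under the other alternatives, which include each kit alone and the block without E14.5 batch 1. The 3 were, in acinar-like cells, Ndn (0.2601) and Igf2r (-0.835) without E17.5 v2 and Rtl1 (4.652) without E12.5 v2. With 1 library left out, their log2 folds ranged from -2.368 to 0.2601, from -0.835 to 1.842 and from -8.364 to 4.652. The cause was not tested.

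Counts of all genes called that moved by over 1.5 times are given next. With no filter on low counts, where more genes are tested, they were 1240 for alpha-like against beta-like cells (431 as reported), 5263 for mesenchymal-like against ductal-like cells (3198), 824 for the interaction (504) and, by stage, 2098 in mesenchymal-like (1298), 1197 in ductal-like (680), 616 in alpha-like (283), 326 in endothelial-like (155) and 416 in macrophage-like cells (121). With counts split in 2 parts they were 245 for alpha-like against beta-like cells and 155 for stage in alpha-like cells, and with v2 libraries alone 943 for the former. DESeq2 gave 102 in endothelial-like and 189 in macrophage-like cells, and class totals alone gave 4309 in acinar-like cells (2447).

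With no replicate block (kit left out) the counts of genes by stage were 477 in mesenchymal-like, 1433 in mesothelial-like (2240), 1298 in acinar-like, 378 in ductal-like, 32 in alpha-like, 12 in endothelial-like and 0 in macrophage-like cells by edgeR. Listed genes called were then 2 in mesothelial-like (6), 6 in acinar-like (11), 3 in ductal-like (8) and 0 in alpha-like (4) and endothelial-like cells (2). With the replicate block on kit and E14.5 batch 1 left out, 1342 genes were called in ductal-like and 629 in macrophage-like cells, and 7 listed genes in mesenchymal-like (3), 10 in mesothelial-like and 9 in macrophage-like cells (0). The library block changed 2 calls between alpha-like and beta-like cells, those of Peg10 and Usp29.

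Listed genes called by stage in mesenchymal-like cells were 7 with DESeq2, 10 with no filter, 6 at resolution 2, and 5 with the listed genes not held out, with split counts or with haemoglobin left out. In endothelial-like cells they were 1 with DESeq2 or with the Fev-Cre library added, in alpha-like cells 0 with split counts, and in macrophage-like cells 4 with no filter and 1 with DESeq2, split counts or doublets kept in. The mean share of mesenchymal-like cells with a UMI was 27.99% thinned and 38.23% with all UMIs.

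With 1 library left out, genes called ranged from 248 to 626 for alpha-like against beta-like cells, 2833 to 3313 for mesenchymal-like against ductal-like cells and 81 to 678 for the interaction. By stage they ranged from 533 to 1447 in mesenchymal-like, 423 to 2632 in mesothelial-like, 306 to 3581 in acinar-like, 111 to 1342 in ductal-like, 24 to 472 in alpha-like, 20 to 214 in endothelial-like and 15 to 629 in macrophage-like cells. Listed genes called ranged from 11 to 14, 18 to 21 and 5 to 10 for the first 3, and from 2 to 7, 0 to 10, 4 to 13, 2 to 12, 0 to 5, 0 to 2 and 0 to 9 for the classes in that order.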

Other observations

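Genes within 1 Mb of Peg10 were looked at after the values of the listed genes were seen. Apart from Sgce, Peg10, Ppp1r9a and Asb4, 5 genes were tested there between alpha-like and beta-like cells, of which 3 were called higher in alpha-like cells and 1 lower. Of all genes tested, 2.95% were called higher and 3.38% lower. Pon3, Pon2 and Casd1 of these 5 belong to the other imprinted genes listed for comparison above, and Col1a2 and Bet1 do not. Higher were Pon3 (log2 2.22, adjusted p = 3.22e-09 by edgeR) and Pon2 (1.02, adjusted p = 0.00779), enzymes of the paraoxonase family, and Col1a2 (1.31, adjusted p = 0.00237), a collagen chain of fibroblasts. Dcn, a matrix protein of stroma, was also higher in alpha-like cells (1.14), as were the summed mesenchymal markers, which include Col1a2, in 5 of 6 libraries, and the part of stromal RNA in these values was not tested. Bet1, a protein of vesicle transport, was lower (-1.08, adjusted p = 1.88e-06), and Casd1 had a log2 fold of 0.52 (adjusted p = 0.0583).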
